A study of Homo sapiens with 6 samples.

Results

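The mitochondrial ribosomal protein genes, the nuclear genes for the protein subunits of the ribosome inside mitochondria, were examined in Raji cells, a Burkitt lymphoma B cell line, carrying an shRNA against OBF1 or a control shRNA. OBF1 is the product of POU2AF1, a transcriptional coactivator of B cells. The genes were all protein-coding genes whose symbol starts with MRPL or MRPS followed by a digit, which gave 77 of the 23459 rows in the count table. Of these, 49 carry a large-subunit symbol (MRPL) and 28 a small-subunit symbol (MRPS). The OBF1sh1 group (1 shRNA clone, 3 libraries) and the SHC002 group (the non-target control shRNA, 3 libraries) had both received a pLKO.1 lentiviral vector, with 5 days of infection and 7 days of selection in 3 μg/ml puromycin. Both groups come from a single cell line, and nothing in the labels says that the replicates came from separate infections or cultures, so the p-values cover differences among these 6 libraries, and part of that spread could be technical.

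Mitochondria keep a small genome whose protein-coding genes are all translated by a ribosome of their own. Its RNAs are made in the mitochondrion, whereas its proteins are encoded in the nucleus, made in the cytosol and imported. The large subunit joins amino acids and threads the chain through an exit tunnel towards the inner membrane, and the small subunit reads the messenger RNA. About its surface sit the stalk, where translation factors land, and the central protuberance, which faces the small subunit. Some of the proteins descend from bacterial ribosomal proteins, and others are found in mitochondrial ribosomes and not in bacterial ones. In B cells the products of this ribosome are core subunits of the respiratory chain.

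Libraries held 29569281 to 32612429 counts, of which the 77 genes took 0.666, 0.666 and 0.681% in OBF1sh1 replicates 1, 2 and 3 and 0.658, 0.683 and 0.659% in SHC002 replicates 1, 2 and 3. Replicates are given in that order throughout. Every one of the 77 genes had at least 521 counts in every library, so all 77 passed the filter on low counts and were tested. POU2AF1 had 244, 241 and 241 CPM (counts scaled to a common library size) in OBF1sh1 libraries, against 512, 516 and 512 CPM in SHC002 libraries, a log2 fold change of -1.09 ± 0.02 (SE). The 6 B cell markers summed to 4120 to 4180 CPM in OBF1sh1 libraries and 2460 to 2530 CPM in SHC002 libraries, with most of the difference in MS4A1 (2070 to 2100 CPM in OBF1sh1 libraries, 692 to 719 CPM in SHC002 libraries) and CD79B called lower. The 3 germinal centre markers summed to 350 to 355 CPM in OBF1sh1 libraries and 662 to 684 CPM in SHC002 libraries. Markers of T cells, myeloid cells and the packaging cells or epithelium summed to at most 1.44 CPM in any library, with CD3D, CD2, KRT18 and CDH2 at 0.

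One library in each group stood above its replicates in these genes. Of the 77 genes, 48 had their highest OBF1sh1 value in replicate 3 and 64 had their highest SHC002 value in replicate 2. Over all 12010 tested genes, the same libraries were highest for 31.3% and 37.2%. Results below are therefore also given without these libraries where they move.

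Libraries were compared in 2 ways. Under TMM scaling (trimmed mean of M values) library sizes are adjusted so that most genes centre near no change, and under library sizes alone counts are divided by each library's total. Relative to TMM, library sizes alone lowered every log2 fold change by 0.11, a shift as large as many of the differences described here. All CPM values, log2 fold changes and calls are on the TMM scale unless library sizes alone are named. A gene is called higher or lower where its Benjamini-Hochberg adjusted p over the 12010 genes was under 0.05 in edgeR's quasi-likelihood test.

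More of the mitochondrial ribosomal protein genes rose than fell in OBF1sh1 cells, by small amounts. In bulk RNA, a change in the make-up of the cells and a change in RNA per cell cannot be told apart. Under TMM scaling 49 of the 77 were higher (63.6%), 13 were lower (16.9%) and 15 were not called, against a background of 37.5% of tested genes called higher and 37.9% called lower. Under library sizes alone 31 were higher (40.3%), 23 were lower (29.9%) and 23 were not called, against 28.9% higher and 48.1% lower of tested genes. The median log2 fold change of the 77 was 0.14, beside -0.01 over all tested genes, and 0.03 beside -0.12 under library sizes alone. Values ran between -0.43 (MRPS6) and 0.60 (MRPS14). Only MRPL36 and MRPS14 were called and at least 1.5-fold higher, and none was 1.5-fold lower, whereas 12.9% of tested genes were called higher and 10.4% called lower at that fold. At 1.2-fold the counts were 24 higher and 3 lower, beside 26.2% and 25% of tested genes. The OBF1sh1 libraries lay wholly above the SHC002 libraries for 45 of the 77 genes and wholly below for 13, and the groups overlapped for 19, beside 38% of tested genes above and 38.7% below. DESeq2 called 44 higher and 11 lower, beside 35.2% and 34.3% of tested genes, and edgeR's glmTreat test against a fold of 1.2 called 22 higher and 2 lower, beside 21.3% and 19.4%. Without SHC002 replicate 2 the calls were 51 higher and 10 lower, and without OBF1sh1 replicate 3 they were 42 higher and 11 lower.

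**Figure D1:**
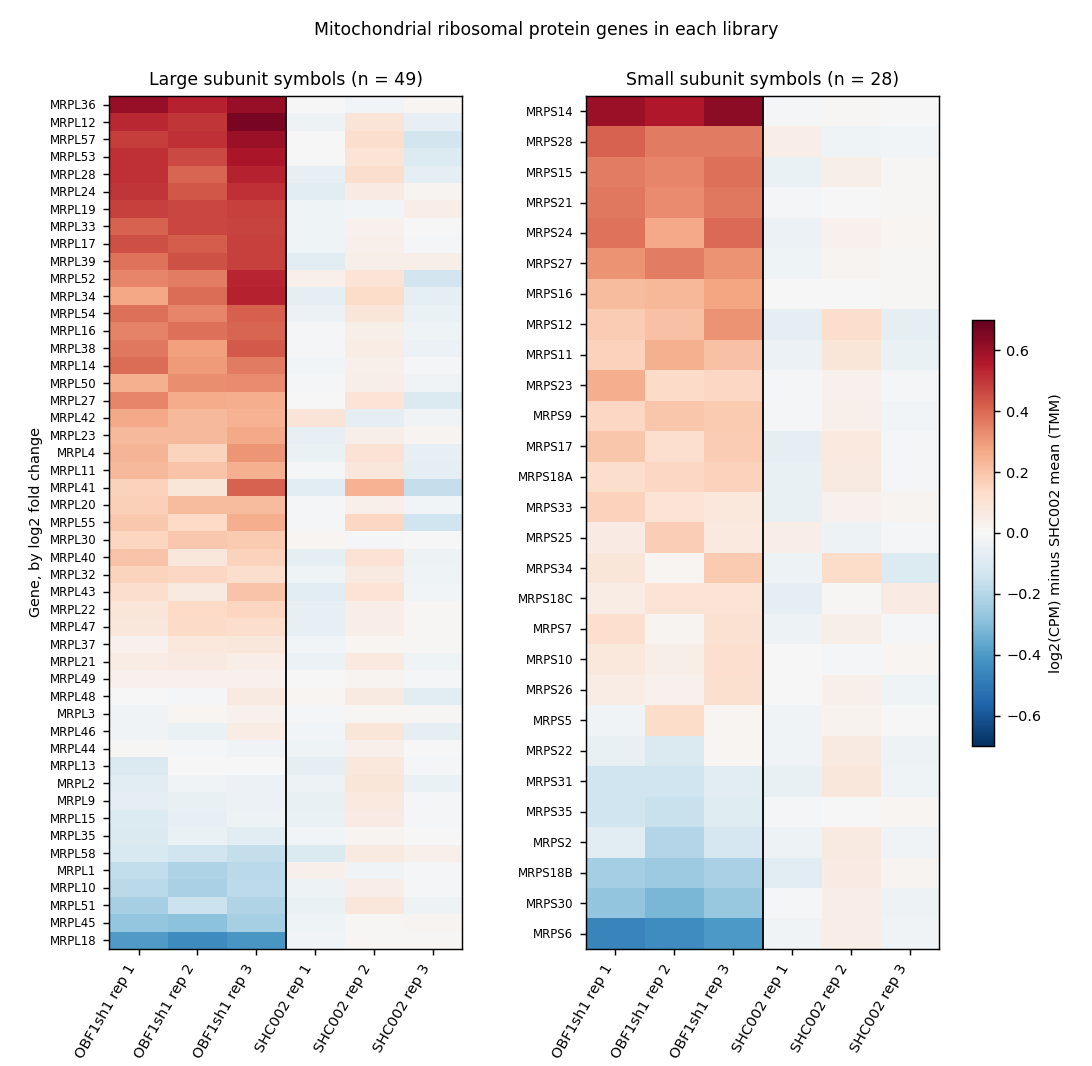
Heat map of the 77 genes (rows, by log2 fold change from highest to lowest) in the 3 OBF1sh1 and 3 SHC002 libraries (columns), large-subunit symbols at left and small-subunit symbols at right; colour is log2 CPM under TMM scaling minus the gene's SHC002 mean. The upper rows are red in all 3 OBF1sh1 libraries, MRPL18, MRPL45, MRPS6 and MRPS30 at the bottom are blue in all 3, and SHC002 replicate 2 is slightly redder than its replicates in most rows.

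No gene was called in one direction under TMM and in the other under library sizes alone. The 31 genes higher under both scalings comprised 23 of the large subunit and 8 of the small subunit. The 13 lower under both comprised 7 and 6. A further 18 were higher under TMM and not called under library sizes alone, 9 in each subunit, and 10 were not called under TMM and lower under library sizes alone, 9 of the large subunit and MRPS22. The other 5 (MRPL21, MRPS5, MRPS18C, MRPS26 and MRPS34) were called under neither. Among the 18, the estimate itself turned below 0 under library sizes alone for MRPL37, MRPS7, MRPS10, MRPS25 and MRPS33. The calls of these 28 genes thus depended on the scaling, and those of the 44 genes called alike under both did not.

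**Figure D2:**
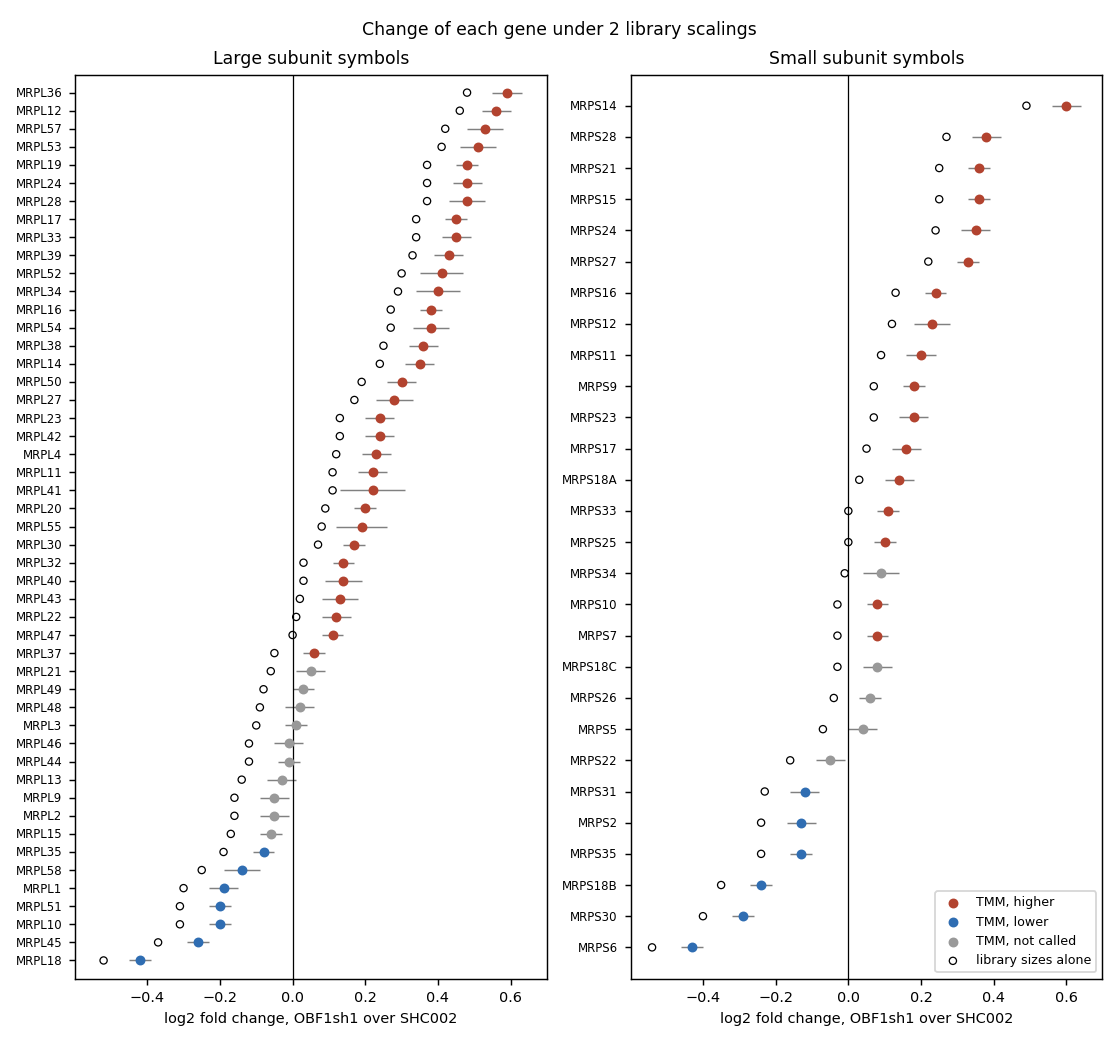
Log2 fold change of each gene, OBF1sh1 over SHC002, for large-subunit symbols (left) and small-subunit symbols (right), with filled points for TMM scaling (red higher, blue lower, grey not called; bars are SE) and open points for library sizes alone. Every open point lies 0.11 to the left of its filled point, within rounding, which carries the middle of both panels across 0 and leaves the ends, from MRPS14 at 0.60 to MRPS6 at -0.43 under TMM, on their own sides.

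Of the 49 large-subunit genes, 32 were higher (65.3%), 7 lower (14.3%) and 10 not called, beside 37.5% higher and 37.9% lower of all tested genes. Their median log2 fold change was 0.19, with a middle 50% between -0.01 and 0.38. With library sizes alone 23 were higher (46.9%) and 16 lower (32.7%), beside 28.9% and 48.1% of tested genes. The median was then 0.08, beside -0.12 over all tested genes. MRPL36 (Entrez gene 64979, chromosome 5), a small protein with a bacterial homologue, had 72.5, 69.1 and 72.7 CPM in OBF1sh1 libraries, against 47.7, 47.0 and 48.0 CPM in SHC002 libraries. Every OBF1sh1 library was above every SHC002 library, 1.5-fold on the fitted scale (log2 fold change 0.59 ± 0.04 SE, adjusted p = 7.24e-11). MRPL12 (Entrez gene 6182, chromosome 17), the stalk protein that contacts translation factors, had 149, 146 and 164 CPM in OBF1sh1 libraries, against 101, 110 and 99.5 CPM in SHC002 libraries. Its lowest OBF1sh1 library was well above its highest SHC002 library (log2 fold change 0.56 ± 0.04, adjusted p = 1.35e-09). MRPL57, a protein with no bacterial counterpart, had 45.7, 46.6 and 49.6 CPM in OBF1sh1 libraries, against 32.7, 35.6 and 29.9 CPM in SHC002 libraries (log2 fold change 0.53 ± 0.05, adjusted p = 7.50e-08). The RefSeq gene table lists 8 pseudogene entries for MRPL57, and how the authors counted reads shared with copies is not given, so its level is uncertain. MRPL53, which lies by the stalk, had 32.5, 31.4 and 33.8 CPM in OBF1sh1 libraries, against 22.8, 24.3 and 21.3 CPM in SHC002 libraries, again without overlap (log2 fold change 0.51 ± 0.05, adjusted p = 8.68e-08). These 4 genes had estimates between 0.41 and 0.48 under library sizes alone.

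The largest fall in the large subunit was that of MRPL18 (Entrez gene 29074, chromosome 6), a central protuberance protein related to the bacterial protein that binds the smallest ribosomal RNA. MRPL18 had 127, 123 and 126 CPM in OBF1sh1 libraries, against 165, 168 and 168 CPM in SHC002 libraries. All 3 OBF1sh1 libraries were lower by about the same amount (log2 fold change -0.42 ± 0.03, adjusted p = 1.87e-10). MRPL45, which tethers the ribosome to the inner membrane beside the exit tunnel, had 96.5, 95.4 and 99.2 CPM in OBF1sh1 libraries, against 114, 117 and 118 CPM in SHC002 libraries (log2 fold change -0.26 ± 0.03, adjusted p = 4.92e-07). MRPL51, a mitochondria-specific protein, had 153, 162 and 155 CPM in OBF1sh1 libraries, against 174, 190 and 175 CPM in SHC002 libraries (log2 fold change -0.20 ± 0.03, adjusted p = 5.03e-05). MRPL10, which anchors the stalk proteins, had 89.1, 87.0 and 89.7 CPM in OBF1sh1 libraries, against 99.1, 105 and 101 CPM in SHC002 libraries (log2 fold change -0.20 ± 0.03, adjusted p = 2.12e-05). None of these 4 overlapped between groups, and under library sizes alone each was lower still, at -0.31 to -0.52. MRPL1, MRPL35 and MRPL58 were the other 3 called lower, at -0.19, -0.08 and -0.14.

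Within the stalk the genes did not move alike. Of the 5 stalk genes, MRPL12, MRPL53, MRPL54 and MRPL11 rose (80%) and MRPL10 fell (20%), all under both scalings. Of all tested genes, 37.5% were higher and 37.9% lower under TMM, and 28.9% and 48.1% under library sizes alone. MRPL54 had 26.5, 25.7 and 27.1 CPM in OBF1sh1 libraries, against 19.7, 21.5 and 19.6 CPM in SHC002 libraries (log2 fold change 0.38 ± 0.05, adjusted p = 3.40e-06). MRPL11 had 94.9, 93.1 and 96.3 CPM in OBF1sh1 libraries, against 80.3, 85.7 and 77.6 CPM in SHC002 libraries (log2 fold change 0.22 ± 0.04, adjusted p = 2.80e-05). Of the 8 genes for proteins around the exit tunnel, 6 were higher (75%) and 1 lower (12.5%) under TMM. Under library sizes alone 4 were higher (50%) and 2 lower (25%). They were led by MRPL24, MRPL17 and MRPL39 at log2 fold changes of 0.48, 0.45 and 0.43, with MRPL45 falling under both scalings. Of the 7 central protuberance genes, 4 were higher (57.1%) and 1 lower (14.3%) under TMM. Under library sizes alone 2 were higher (28.6%) and 3 lower (42.9%). These last shares of the protuberance genes were near those of all tested genes. MRPL38 in this group had 87.6, 82.7 and 91.3 CPM in OBF1sh1 libraries, against 67.5, 70.2 and 65.9 CPM in SHC002 libraries (log2 fold change 0.36 ± 0.04, adjusted p = 1.76e-07), while MRPL18 fell. MRPL46, a further protuberance gene with the lowest level per length of the large subunit, had 64.4, 63.5 and 68.0 CPM in OBF1sh1 libraries, against 64.8, 69.6 and 62.6 CPM in SHC002 libraries. The groups overlapped, and the 95% interval of its log2 fold change ran between -0.09 and 0.07 (adjusted p = 0.864), whereas under library sizes alone it was called lower at -0.12 (adjusted p = 0.0159).

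Of the 28 small-subunit genes, 17 were higher (60.7%), 6 lower (21.4%) and 5 not called, beside 37.5% higher and 37.9% lower of all tested genes. Their median log2 fold change was 0.11, with a middle 50% between 0.02 and 0.23. With library sizes alone 8 were higher (28.6%) and 7 lower (25%), beside 28.9% and 48.1% of tested genes. The median was then 0, beside -0.12 over all tested genes. Without SHC002 replicate 2 the median under TMM was 0.15. MRPS14 (Entrez gene 63931, chromosome 1), a small-subunit protein with a bacterial homologue, had 42.5, 41.2 and 43.1 CPM in OBF1sh1 libraries, against 27.8, 28.1 and 27.9 CPM in SHC002 libraries. It had the largest rise of the 77, 1.51-fold, with no overlap between groups (log2 fold change 0.60 ± 0.04, adjusted p = 3.86e-10). MRPS28 had 50.6, 48.9 and 49.0 CPM in OBF1sh1 libraries, against 39.3, 37.3 and 37.5 CPM in SHC002 libraries (log2 fold change 0.38 ± 0.04, adjusted p = 1.12e-07). MRPS15, which binds the small subunit's RNA early in its assembly in bacteria, had 209, 207 and 213 CPM in OBF1sh1 libraries, against 158, 168 and 164 CPM in SHC002 libraries (log2 fold change 0.36 ± 0.03, adjusted p = 1.93e-09). All 3 OBF1sh1 libraries were above all SHC002 libraries for both. MRPS21 had 101, 98.4 and 101 CPM in OBF1sh1 libraries, against 77.9, 78.1 and 78.6 CPM in SHC002 libraries (log2 fold change 0.36 ± 0.03, adjusted p = 6.94e-09), and the RefSeq table lists 9 pseudogene entries for it, so that its level is likewise uncertain.

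MRPS6 (Entrez gene 64968, chromosome 21) fell the most of the 77. It had 85.5, 87.4 and 89.2 CPM in OBF1sh1 libraries, against 116, 122 and 116 CPM in SHC002 libraries, 1.35-fold lower without overlap (log2 fold change -0.43 ± 0.03, adjusted p = 9.40e-10). The span of MRPS6 holds SLC5A3, the myo-inositol transporter, which averaged 103 CPM in OBF1sh1 libraries and 161 CPM in SHC002 libraries (log2 fold change -0.64 ± 0.04), and whether reads were shared between them was not tested. MRPS2 had 156, 142 and 151 CPM in OBF1sh1 libraries, against 160, 171 and 161 CPM in SHC002 libraries, all lower in OBF1sh1 (log2 fold change -0.13 ± 0.04, adjusted p = 0.00253). MRPS31 had 54.7, 54.7 and 57.2 CPM in OBF1sh1 libraries, against 58.1, 63.7 and 59.0 CPM in SHC002 libraries (log2 fold change -0.12 ± 0.04, adjusted p = 0.0155). Its call was lost without OBF1sh1 replicate 1 (adjusted p = 0.0595), without OBF1sh1 replicate 2 (adjusted p = 0.0550) and without SHC002 replicate 2 (adjusted p = 0.128). MRPS35 was the sixth called lower, at -0.13, with MRPS30 and MRPS18B described next.

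A pair of genes with small-subunit names, MRPS30 and MRPS18A, encode proteins that sit in the large subunit of the assembled ribosome. MRPS30 had 67.4, 65.5 and 67.8 CPM in OBF1sh1 libraries, against 81.1, 84.3 and 79.5 CPM in SHC002 libraries, with no overlap (log2 fold change -0.29 ± 0.03, adjusted p = 6.53e-07). MRPS18A, MRPS18B and MRPS18C are paralogs of a single bacterial protein. The RefSeq table lists 1, 2 and 6 pseudogene entries for them in that order. Whether reads were shared with those copies or among the 3 genes was not tested. MRPS18A had 51.7, 52.4 and 53.1 CPM in OBF1sh1 libraries, against 45.8, 49.6 and 47.0 CPM in SHC002 libraries (log2 fold change 0.14 ± 0.04, adjusted p = 0.00360), and under library sizes alone its estimate was 0.03 (adjusted p = 0.439). MRPS18B had 101, 100 and 102 CPM in OBF1sh1 libraries, against 113, 124 and 121 CPM in SHC002 libraries (log2 fold change -0.24 ± 0.03, adjusted p = 6.47e-06). MRPS18C had 33.7, 34.8 and 34.8 CPM in OBF1sh1 libraries, against 31.1, 32.7 and 33.8 CPM in SHC002 libraries, overlapping in range, and was not called (log2 fold change 0.08, 95% interval -0.01 to 0.17, adjusted p = 0.108). Of the 3 paralogs, then, 1 rose under TMM, 1 fell under both scalings and 1 did not pass the test. With MRPS30 and MRPS18A counted in the large subunit, 33 of 51 large-subunit genes were higher and 8 lower (median 0.17), and 16 of 26 small-subunit genes were higher and 5 lower (median 0.11).

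Summed over each subunit, the differences between groups were small. Large-subunit genes summed to 4131, 4134 and 4260 CPM in OBF1sh1 libraries, against 3736, 3938 and 3755 CPM in SHC002 libraries, a ratio of means of 1.10. Small-subunit genes summed to 2795, 2767 and 2830 CPM in OBF1sh1 libraries, against 2566, 2679 and 2594 CPM in SHC002 libraries, a ratio of 1.07. Neither sum overlapped between groups under TMM. Under library sizes alone the large-subunit sum was 4018 ± 64.7 CPM in OBF1sh1 libraries and 3955 ± 95.3 CPM in SHC002 libraries, and the small-subunit sum was 2693 ± 24 CPM in OBF1sh1 libraries and 2713 ± 46.7 CPM in SHC002 libraries (SD, n = 3 each), and both overlapped.

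The ratio of large-subunit to small-subunit counts within a library does not depend on scaling. It was 1.478, 1.494 and 1.505 in OBF1sh1 libraries, against 1.456, 1.470 and 1.448 in SHC002 libraries. The OBF1sh1 values lay above the SHC002 values, with means of 1.492 ± 0.0136 in OBF1sh1 and 1.458 ± 0.0111 in SHC002 libraries (SD, n = 3 each), a ratio of 1.02. When MRPS30 and MRPS18A were moved to the large subunit, the ratio was 1.588, 1.605 and 1.617 in OBF1sh1 libraries, against 1.584, 1.6 and 1.573 in SHC002 libraries, and the groups overlapped. On geometric means over genes, which give every gene the same weight, the large to small ratio with those 2 genes moved was 0.7837 to 0.7957 in OBF1sh1 libraries and 0.7534 to 0.7752 in SHC002 libraries, without overlap. Whether the groups separated thus depended on where the 2 genes are counted for summed counts, and not for geometric means. The medians of the subunits' log2 fold changes differed by 0.08 (large minus small), and by 0.03 without OBF1sh1 replicate 3 and 0.02 without SHC002 replicate 3.

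**Figure D3:**
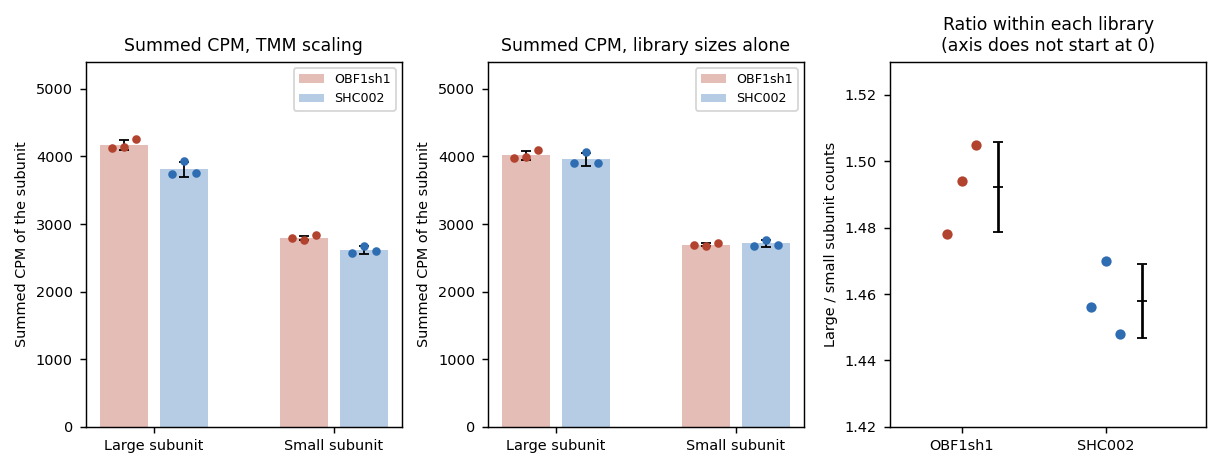
Summed CPM of large-subunit and small-subunit symbols under TMM scaling (left) and library sizes alone (middle), and the large to small count ratio within each library (right; axis cropped), OBF1sh1 in red and SHC002 in blue, with points for libraries and bars or ticks for mean and SD (n = 3 each). The OBF1sh1 sums lie above the SHC002 sums under TMM and overlap with them under library sizes alone, and the ratio is 1.478 to 1.505 in OBF1sh1 libraries and 1.448 to 1.470 in SHC002 libraries.

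Genes of bacterial descent and mitochondria-specific genes both held more rises than falls under TMM. Of 48 with a bacterial homologue, 33 were higher (68.8%) and 7 lower (14.6%), with a median log2 fold change of 0.18. Of 29 mitochondria-specific genes, 16 were higher (55.2%) and 6 lower (20.7%), with a median of 0.10. The shares over all tested genes were 37.5% and 37.9%. On library sizes alone 22 genes with a bacterial homologue were higher (45.8%) and 12 lower (25%). Among mitochondria-specific genes 9 were higher (31%) and 11 lower (37.9%), beside 28.9% and 48.1% of all tested genes. The difference between the bacterial and mitochondria-specific classes was not tested.

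Levels between genes were compared in RPKM, a library's reads scaled to its size and to the gene length in the table. Large-subunit genes had a median of 49.7 RPKM in OBF1sh1 libraries and 45.8 RPKM in SHC002 libraries, and small-subunit genes 64.6 RPKM in OBF1sh1 libraries and 53.0 RPKM in SHC002 libraries. Different genes can stand in the middle in each group, so 2 such medians do not give a fold change. The median log2 fold changes were 0.19 for large-subunit and 0.11 for small-subunit genes. Over all 6 libraries the large-subunit genes spanned 11.2 (MRPL46) to 249 RPKM (MRPL51), and the small-subunit genes 10.3 (MRPS18B) to 193 RPKM (MRPS15). The table gives MRPS18B a length of 10738 bases, far above the median of 1458 bases of the 77 genes, which lowers its RPKM and not its fold change. The libraries of a group agreed closely, with a median coefficient of variation of 3.10% for large-subunit and 2.86% for small-subunit genes. Across the 77 genes, length and log2 fold change had a Spearman correlation of -0.20, close to -0.17 over the 12010 tested genes; these are across genes, which share the libraries and are not independent replicates.

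Of the 62 called genes, 13 lost their call when some 1 library was left out. Those with the smallest adjusted p among them were MRPS33, MRPL22, MRPS25, MRPS31, MRPL58 and MRPL55. MRPS33 had 118, 113 and 111 CPM in OBF1sh1 libraries, against 102, 108 and 107 CPM in SHC002 libraries (log2 fold change 0.11 ± 0.03, adjusted p = 0.00804), and an adjusted p of 0.0531 without SHC002 replicate 1. MRPL22, at the exit tunnel, had 52.5, 54.5 and 54.9 CPM in OBF1sh1 libraries, against 47.6, 51.2 and 49.8 CPM in SHC002 libraries (log2 fold change 0.12 ± 0.04, adjusted p = 0.00937), and 0.0546 as adjusted p without SHC002 replicate 1. For both genes the lowest OBF1sh1 library lay just above the highest SHC002 library. MRPS25 had 125, 135 and 126 CPM in OBF1sh1 libraries, against 124, 117 and 119 CPM in SHC002 libraries (log2 fold change 0.10 ± 0.03, adjusted p = 0.00989, and 0.0615 without OBF1sh1 replicate 2). MRPL58, a peptidyl-tRNA hydrolase that became part of the ribosome, had 29.6, 28.9 and 28.3 CPM in OBF1sh1 libraries, against 29.7, 33.3 and 32.6 CPM in SHC002 libraries (log2 fold change -0.14 ± 0.05, adjusted p = 0.0163). Its adjusted p was 0.0625 without OBF1sh1 replicate 3, 0.0793 without SHC002 replicate 2 and 0.0700 without SHC002 replicate 3. MRPL55 had 20.7, 20 and 21.7 CPM in OBF1sh1 libraries, against 18.1, 20.1 and 16.5 CPM in SHC002 libraries, overlapping in range (log2 fold change 0.19 ± 0.07, adjusted p = 0.0165), with 0.0588 without OBF1sh1 replicate 3 and 0.0928 without SHC002 replicate 3. The others were MRPL35, MRPL37, MRPL40, MRPL41, MRPL43, MRPS7 and MRPS10.

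The promoters of the genes were read for short motifs of factors known to act on mitochondrial or B cell genes. RefSeq windows of 250 bases before to 50 after each start, on GRCh38.p14, were at hand for 69 of the 77 genes, and both strands were searched for exact matches. The YY1 motif AAGATGGCG stood in 13 of the 69 genes (18.8%), beside 5.29% of 9119 tested protein-coding genes with a window and 3.21% of all 15843 protein-coding genes with one. It was in 8 of 42 large-subunit and 5 of 27 small-subunit genes, and in 10 of 47 genes called higher, 2 of 11 called lower and 1 of 11 not called. MRPL52 held it at 2 places, which makes 14 sites. Of these, 12 read in the direction of the gene and 10 lay downstream of the start site, with first bases between positions -223 and 36. The motif contains the letters ATG, and whether any of the sites is also a start of translation was not tested. The sites are shown with 10 bases on either side, fewer where the window ends, because the motif recurs across both subunits and among genes that rose and that fell; capitals mark the motif, and each is written on the strand given.
MRPL22 (chr5:154941098-154941122, plus strand): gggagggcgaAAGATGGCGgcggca
MRPL32 (chr7:42932143-42932171, minus strand): tcttcgggtaAAGATGGCGgagcgcgggt
MRPL36 (chr5:1799855-1799883, plus strand): gccaggaaggAAGATGGCGgcgggggggg
MRPL38 (chr17:75904860-75904888, minus strand): ggccggagggAAGATGGCGgcgccctggt
MRPL42 (chr12:93467512-93467540, plus strand): ggattgaaacAAGATGGCGggttcgtggt
MRPL46 (chr15:88467362-88467390, minus strand): gggagaacgaAAGATGGCGgcgcccgtaa
MRPL50 (chr9:101398577-101398605, minus strand): gatctcatcgAAGATGGCGgcgcgatctg
MRPL52 (chr14:22829779-22829807, plus strand): acgatgacccAAGATGGCGgagccgtgat
MRPL52 (chr14:22829813-22829841, plus strand): acccagattcAAGATGGCGacttcctgct
MRPS10 (chr6:42217834-42217862, minus strand): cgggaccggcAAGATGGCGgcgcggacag
MRPS18A (chr6:43687764-43687792, minus strand): taggtttttgAAGATGGCGgccctcaagg
MRPS18B (chr6:30617853-30617881, plus strand): ggcgtacgtcAAGATGGCGgcgtctgtat
MRPS24 (chr7:43869480-43869508, minus strand): cgcttggcccAAGATGGCGgcctccgtgt
MRPS30 (chr5:44808950-44808978, plus strand): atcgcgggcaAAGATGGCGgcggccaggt
Next to the capitals, the base that follows the motif is g in 13 of the 14 sites. The 8 genes without a window are MRPL2, MRPL10, MRPL13, MRPL15, MRPL21, MRPL23, MRPL35 and MRPS28.

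The ETS motif CCGGAAGT, bound by GABP, was in 12 of the 69 genes (17.4%), beside 10.9% of tested genes. The E-box CACGTG was in 9 (13.0%), beside 13.1%, and the NRF1 motif GCGCATGCG in 3 (4.35%), beside 4.73%. The octamer ATGCAAAT, bound by the Oct factors with which OBF1 works, was in none of the 69, and in 1.97% of tested genes. No motif searched contains another. RefSeq windows of MRPL36 and MRPL18, the large-subunit genes with the largest rise and the largest fall, are given for comparison, from 250 bases before to 50 after the start. Capitals mark an E-box and, further on, a YY1 motif in antisense in MRPL36; none of the 5 motifs is in the MRPL18 window shown, the first of 3 listed for that gene, and another of the 3 holds the ETS motif, so that MRPL18 counts among the 12 genes above.
MRPL36 (chr5:1799788-1800087, minus strand): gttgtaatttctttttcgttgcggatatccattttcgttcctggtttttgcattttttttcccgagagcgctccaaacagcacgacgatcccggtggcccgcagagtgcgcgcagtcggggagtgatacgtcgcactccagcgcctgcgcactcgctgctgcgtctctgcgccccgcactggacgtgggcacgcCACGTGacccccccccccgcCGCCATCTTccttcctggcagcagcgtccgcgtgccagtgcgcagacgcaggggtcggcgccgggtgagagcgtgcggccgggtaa
MRPL18 (chr6:159789562-159789861, plus strand): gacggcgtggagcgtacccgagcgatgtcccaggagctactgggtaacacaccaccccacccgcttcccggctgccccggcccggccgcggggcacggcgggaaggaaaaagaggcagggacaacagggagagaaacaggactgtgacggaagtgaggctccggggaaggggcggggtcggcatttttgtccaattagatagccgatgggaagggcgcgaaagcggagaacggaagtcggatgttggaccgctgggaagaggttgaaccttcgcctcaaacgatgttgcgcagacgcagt
Only exact matches to these letters were counted, so a window without one can still hold a variant site. These matches describe letters in a window and do not show binding.

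Many of the genes share a start region with a neighbour. Start sites were taken from the RefSeq promoter windows, so only the 69 genes with a window, and neighbours with one, were searched. A tested protein-coding gene started within 1000 bases on the opposite strand for 20 of the 69. Of these 20 pairs, 6 were both higher, 2 both lower, 4 opposite and 8 had at least 1 gene not called. MRPL46 and MRPS11, which face each other 320 bases apart, are counted from both sides. Taken singly, 63.6% of the 77 genes were higher and 16.9% lower, and 37.5% and 37.9% of all tested genes. No share of such pairs over all genes was computed, so whether the pairs moved together more often than unlinked genes was not tested. Across the 20 pairs Pearson's r of the log2 fold changes was 0.09 and Spearman's rho 0.12, as a description. The examples that follow were chosen after their values were seen. TCP1, a subunit of the cytosolic chaperonin, starts 210 bases from MRPL18 and averaged 741 CPM in OBF1sh1 libraries and 856 CPM in SHC002 libraries, a log2 fold change of -0.21 beside -0.42 for MRPL18. SKA3, a kinetochore protein, starts 106 bases from MRPL57 and averaged 65.3 CPM in OBF1sh1 libraries and 92.3 CPM in SHC002 libraries, a log2 fold change of -0.50 beside 0.53 for MRPL57.

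By the spans in the RefSeq table, 16 of the 77 genes overlapped a tested gene, and some of them also have a neighbour described above. The libraries were made with a stranded kit, but the strand setting used in counting is not given, so reads of overlapping genes cannot be told apart here. The 3 overlaps named were chosen after their values were seen. MRPL36 overlaps NDUFS6, a respiratory chain subunit at 80.2 CPM in OBF1sh1 and 68.9 CPM in SHC002 libraries (log2 fold change 0.22 ± 0.05). MRPL24, at 0.48, overlaps HDGF, at -0.15, and MRPS24, at 0.35, shares exons with the readthrough gene URGCP-MRPS24, at 0.33.

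Other proteins of mitochondrial translation were read from lists of related genes. For comparison, 37.5% of all tested genes were higher and 37.9% lower under TMM (median -0.01). Under library sizes alone these were 28.9% and 48.1% (median -0.12). Of 5 ribosomal proteins that carry other symbols, 3 were higher (60%) and none lower under TMM. With library sizes alone 2 were higher (40%) and 2 lower (40%). AURKAIP1, a small-subunit protein, had 85.6, 77.9 and 87.0 CPM in OBF1sh1 libraries, against 62.7, 69.5 and 61.3 CPM in SHC002 libraries (log2 fold change 0.37, adjusted p = 1.45e-06). PTCD3, an RNA-binding protein of the small subunit, had 164, 175 and 171 CPM in OBF1sh1 libraries, against 149, 148 and 149 CPM in SHC002 libraries (log2 fold change 0.20, adjusted p = 6.42e-06). Neither overlapped between groups. Of 25 assembly and rRNA modification genes, 14 were higher (56%) and 6 lower (24%), with a median of 0.10. With library sizes alone 9 were higher (36%) and 7 lower (28%), with a median of -0.01. MPV17L2, an inner membrane protein that binds the large subunit during assembly, had 71.4, 65.4 and 68.8 CPM in OBF1sh1 libraries, against 32.2, 33.7 and 32.3 CPM in SHC002 libraries. At 2.09-fold it rose further than any of the 77 ribosomal protein genes (log2 fold change 1.07 ± 0.04, adjusted p = 9.69e-14). MTG1, a GTPase of large-subunit assembly, was higher at 0.48 (adjusted p = 1.59e-09). NGRN, needed for the large ribosomal RNA, had 75.5, 74.6 and 77.5 CPM in OBF1sh1 libraries, against 120, 125 and 120 CPM in SHC002 libraries (log2 fold change -0.68, adjusted p = 1.33e-12). GTPBP10, a further assembly GTPase, was lower at -0.43 (adjusted p = 1.18e-09), so factors of large-subunit assembly lay on both sides.

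Of 16 mitochondrial translation factors, 9 were higher (56.2%) and 3 lower (18.8%), beside 37.5% and 37.9% of all tested genes (medians 0.10 and -0.01). With library sizes alone 6 were higher (37.5%) and 4 lower (25%), beside 28.9% and 48.1% (medians -0.01 and -0.12). GFM1, the elongation factor that moves the ribosome along, had 163, 170 and 166 CPM in OBF1sh1 libraries, against 116, 119 and 119 CPM in SHC002 libraries (log2 fold change 0.50, adjusted p = 2.21e-11). OXA1L, which inserts new chains into the inner membrane, was higher at 0.31 (adjusted p = 1.66e-08), and the initiation factor MTIF2 and the release factor MTRF1 were lower at -0.18 (adjusted p = 2.03e-05) and -0.23 (adjusted p = 0.00155). Of 17 mitochondrial tRNA synthetases, 12 were higher (70.6%) and 2 lower (11.8%), with a median of 0.17. With library sizes alone 7 were higher (41.2%) and 2 lower (11.8%), with a median of 0.07. IARS2, which charges the isoleucine tRNA, had 322, 324 and 330 CPM in OBF1sh1 libraries, against 223, 230 and 226 CPM in SHC002 libraries (log2 fold change 0.52, adjusted p = 1.62e-12). LARS2 was higher at 0.41 (adjusted p = 2.94e-10), and HARS2 and NARS2 were lower at -0.16 (adjusted p = 0.00142) and -0.15 (adjusted p = 0.00253).

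The genes for transcription and maintenance of mitochondrial DNA were more often lower. Of 9 tested, 3 were higher (33.3%) and 6 lower (66.7%), beside 37.5% and 37.9% of all tested genes. The median was -0.12, beside -0.01. Under library sizes alone 1 of 9 was higher (11.1%) and 6 lower (66.7%), beside 28.9% and 48.1% of all tested genes. TFAM, which packages mitochondrial DNA and starts its transcription, had 217, 212 and 211 CPM in OBF1sh1 libraries, against 279, 274 and 280 CPM in SHC002 libraries (log2 fold change -0.38, adjusted p = 1.77e-10). TWNK, the replicative helicase, was lower at -0.39 (adjusted p = 6.90e-10). TEFM, the elongation factor, was higher at 0.36 (adjusted p = 2.26e-05), and the polymerase POLG at 0.16 (adjusted p = 0.000129), or 0.05 under library sizes alone (adjusted p = 0.126). Of 8 tested nuclear regulators of mitochondrial genes, 2 were higher (25%) and 6 lower (75%), with a median of -0.16. Under library sizes alone none was higher and 6 were lower (75%), beside the same shares of all tested genes. NRF1 had 28.7, 27.3 and 28.2 CPM in OBF1sh1 libraries, against 34.8, 35.5 and 35.6 CPM in SHC002 libraries (log2 fold change -0.33, adjusted p = 1.76e-06). YY1 had 143, 144 and 141 CPM in OBF1sh1 libraries, against 163, 165 and 162 CPM in SHC002 libraries (log2 fold change -0.20, adjusted p = 2.50e-06). GABPB1, a subunit of GABP, was lower at -0.36 (adjusted p = 2.72e-07). ESRRA was higher at 0.17 (adjusted p = 0.00204) and PPARGC1B at 0.08 (adjusted p = 0.0397), and under library sizes alone these were 0.06 (adjusted p = 0.188) and -0.03 (adjusted p = 0.486). None of 15 mitochondrially encoded genes sought had a row, so the RNA of that genome was not analysed here.

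The genes of the cytosolic ribosome and of the respiratory chain complexes moved mostly upwards. The respiratory chain list also took in ATP synthase and succinate dehydrogenase genes, and the products of mitochondrial translation belong to some of its complexes. Of 83 tested cytosolic ribosomal protein genes, 78 were higher and 3 lower (median 0.38), and of 79 tested nuclear genes for respiratory chain subunits 71 were higher and 3 lower (median 0.35). Under library sizes alone the counts were 75 higher and 4 lower (median 0.28), and 65 higher and 7 lower (median 0.24). Over all tested genes 37.5% were higher and 37.9% lower under TMM, and 28.9% and 48.1% under library sizes alone. The 77 mitochondrial ribosomal protein genes had medians of 0.14 and 0.03 under the same scalings. These are counts side by side in the same libraries, and the difference between the lists was not tested.

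**Figure D4:**
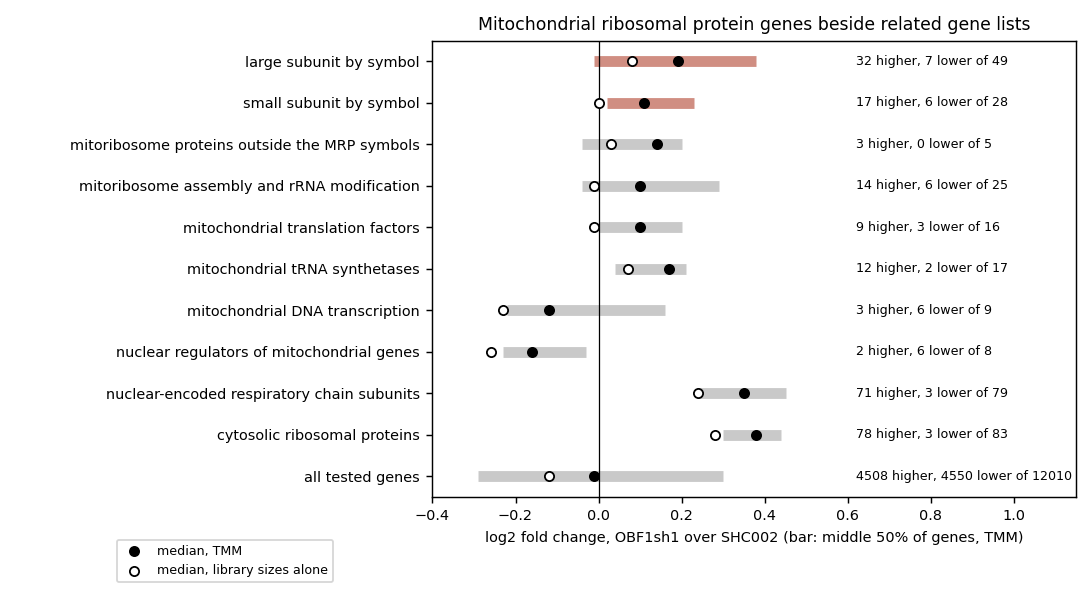
Log2 fold change, OBF1sh1 over SHC002, for the mitochondrial ribosomal protein genes (red) and related lists (grey): bars span the middle 50% of genes under TMM scaling, filled points are the median under TMM, open points the median under library sizes alone, and the text at right counts calls under TMM. Large-subunit and small-subunit medians are 0.19 and 0.11 under TMM, the cytosolic ribosomal protein and respiratory chain medians 0.38 and 0.35, and the regulators -0.16.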

How the data were processed

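RNA of 6 Raji libraries (3 OBF1sh1, 3 SHC002) was sequenced after poly(A) selection with a kit that keeps strand, as the labels' protocols state. The authors deposited 1 table of raw counts per gene with a column of gene lengths in bases; the submitters' processing notes list the builds hg19 and mm9. Which aligner, counting tool, annotation, strand option and filter were used is not given in the sources. Of 23459 rows, 23308 matched a symbol in a RefSeq table (GRCh38.p14) by gene identifier, and 151 without a symbol stayed in the tests. The coordinates of the promoter windows are those of GRCh38.p14, not of the authors' build. All count columns were used, with 0 left out.

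Groups and replicate numbers come from the sample titles. Genes were kept by filterByExpr (minimum count 10, minimum total 15; 12010 genes), and tested in R 4.3.3 with edgeR 4.0.16 (TMM, quasi-likelihood F test, all 6 libraries, no covariate, Benjamini-Hochberg threshold 0.05). TMM factors were 0.961 to 0.966 in OBF1sh1 libraries and 1.033 to 1.045 in SHC002 libraries; the common biological coefficient of variation was 0.0269. The standard error is the log2 fold change divided by the square root of F, and 95% intervals are 1.96 standard errors either side. Replicates differed by more than counting noise (chi-square per degree of freedom 1.84 to 3.17), so none were merged. The fit was checked on simulated counts with 50 genes changed at each of 1.25-fold, 1.5-fold, 2-fold and 4-fold. It recovered 78% of those at 1.25-fold and 96 to 100% of the others. Of called genes, 6.03% were false. Every simulated gene had the same biological coefficient of variation, and no change under 1.25-fold was simulated. The check therefore does not cover genes of wider spread or smaller changes. In the real data 75.4% of tested genes were called, so it also does not cover scaling under so wide a change. Alternatives used limma 3.58.1 and DESeq2 1.42.0.

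The genes and lists were chosen with earlier results of these data known, and the stalk, exit tunnel and homology classes are from general knowledge of the ribosome's structure. Genes given values were those with the largest rises and falls (4 each per subunit, called, without overlap), MRPS30 and the MRPS18 genes, the highest and lowest RPKM, any gene whose call turned direction with scaling, the first 6 that lost a call with a library left out, and the 2 with the smallest p per direction in each list. MRPL11, MRPL54, MRPL38 and the exit tunnel genes were added after their values were seen, to describe the regions, and YY1 beside its motif.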

Additional observations from a re-analysis of the deposited data

How the results depend on the processing

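Scaling and the fold tested against moved the counts by over 1.5 times. Under library sizes alone 31 of the 77 genes were higher and 23 lower, with 16 large-subunit genes lower and 8 small-subunit genes higher, and medians of 0.08 (large) and 0 (small). MRPS33, MRPS25 and PPARGC1B then stood at -0.003, -0.0045 and -0.03, none called; the shift follows from the scaling itself. Tested against a fold of 1.2 (glmTreat), 22 genes were higher and 2 lower: 16 and 1 of the large subunit and 6 and 1 of the small. DESeq2 called 44 higher and 11 lower. The large to small count ratio, OBF1sh1 over SHC002, was 1.01 with MRPS30 and MRPS18A in the large subunit and 1.05 on geometric means.

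With each library left out in turn, 41 to 51 genes were higher and 10 to 14 lower, the small-subunit median was 0.10 to 0.15, the large-subunit median 0.14 to 0.22, the difference of medians 0.02 to 0.08 and the count ratio 1.02 to 1.03.

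Same-numbered libraries did not deviate together (correlations 0.042, -0.204 and -0.142), and 1 of 3 OBF1sh1 libraries correlated best with its own number, so the numbers were not treated as pairs. With the replicate block 43 genes were higher and 13 lower.

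Upper-quartile and RLE factors, other filters and limma-voom kept all counts of calls within 1.5 times. Among the named genes, over all alternatives, 670 comparisons held the call or its absence, 45 lost the call, 2 gained one and 3, named above, turned below 0. Uncalled genes near 0 (MRPL46, MRPS18C) changed sign among the 670. Depth was not limiting, with at least 521 counts per gene and library.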
